A study of Mus musculus with 4 samples.

Results

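The Arp2/3 complex and its activator Wasf2 were examined in mouse C2C12 myoblasts, a satellite cell line from thigh muscle, after exposure to palmitate, a saturated fatty acid. The 10 genes were Actr2, Actr3, Arpc1a, Arpc1b, Arpc2, Arpc3, Arpc4, Arpc5, Arpc5l and Wasf2. They were chosen by results of these same arrays, in which the probes of Arpc3 gave different palmitate-over-control ratios, so the ratios of these genes are given as a description, with no p-value of their own and with counts of calls only beside those of the whole array. Every array probe whose RefSeq identifier maps to one of them was used, which gave 16 probes of 39429 gene probes, and 10 genes of 19751 named genes.

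Total RNA of 4 palmitate-treated and 4 control cultures, described in the labels as 4 biological replicates, was measured on 4 two-colour Agilent arrays. For 48 h the treated cultures received 0.1 mmol/l palmitate in medium with 5% foetal bovine serum, and the controls received the same vehicle of ethanol and albumin free of fatty acids. All cultures were proliferating cells of 1 cell line on day 3 of culture, split at most 7 times. The label of the control channel names 10% of a serum abbreviated HS, where the protocol gives 5% foetal bovine serum for both media, so a difference between the groups in the kind or amount of serum could not be checked. Each array carried 1 treated culture labelled with Cy5 (red) and 1 control labelled with Cy3 (green), and the dyes were never exchanged. Treatment and dye cannot be told apart. All arrays were on 1 slide read in 1 scan. Of the myoblast markers, 8 of 10 were well above background on all 4 control arrays (Myod1, Myf5, Cdh15, Des, Vim, Itga7, Met and Ncam1), as were 7 of 9 markers of differentiated muscle and 3 of the 7 markers of fibroblasts, adipocytes and macrophages that had a probe (Pdgfra, Fabp4 and Adgre1; Cd68 had none).

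Values are log2 ratios of palmitate over control, so that a value below 0 means less RNA with palmitate. Background was corrected and the dyes were normalized within each array, and a probe entered the test if either channel was well above background in every one of the 4 replicates. This held for 24169 probes and for all 16 probes of the 10 genes, which were in fact above background in both channels on every array, with 0 saturated spots. Replicate 1 stood apart from the other arrays. Over the 24169 probes, which do not vary independently, its ratios had correlations of 0.057, -0.157 and -0.157 with those of replicates 2, 3 and 4, while replicates 2 to 4 correlated with each other at 0.677 to 0.772. Each mean of a probe of the 10 genes is therefore also given without replicate 1, and that of a partner gene or list where it moved by over 1.5 times.

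Arp2/3 is the complex that starts a new actin filament as a branch on the side of an existing one. Actr2 and Actr3 resemble actin and form the start of the branch, and the Arpc subunits hold them together and fix them to the mother filament. Proteins with a VCA domain, among them the WAVE protein Wasf2, switch the complex on downstream of the GTPase Rac, and the resulting networks drive lamellipodia, migration and the fusion of myoblasts.

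For 9 of the 10 genes a promoter sequence (300 bases, from 250 before the annotated transcription start) was found in RefSeq on build GRCm38.p6, and the one without an entry was Arpc5l. None of the 9 held the TATA box TATAAA on either strand, which was present in 13.6% of 32851 mouse promoters. These promoters were rich in G and C, with a median of 67.3% (52.7 to 73.7%) against 52.7% over all promoters, and held a median of 29 CpG dinucleotides against 7. The sequence CCGGAAG, the core of an Ets-family binding site, was found on either strand in 5 of 9 promoters (Arpc1a, Arpc3, Arpc4, Actr2 and Actr3) and in 8.9% of all promoters. The GC box GGGCGG was found in 7 of 9 and in 35.7% of all, CCAAT in 3 of 9 and in 37.4% of all, the NRF1 motif in 3 of 9 and in 6.2% of all, and the CArG box of serum response factor in 1 of 9 (Arpc4) and in 1.6% of all. AAGATGG and TGACGTCA were found in none of the 9 and in 6.3% and 1.8% of all. All motifs were searched on both strands. A CArG box can contain CCAAT, but that of Arpc4 does not. The matches describe the letters in these windows and name no bound factor. The set of all promoters was not matched to the 9 for G and C. The shares therefore do not set the 9 apart from other promoters rich in G and C. The 5 stretches with CCGGAAG are shown because this motif was shared by 5 of the 9 but held by few promoters overall. Each runs 5′ to 3′ on the strand of its gene from 40 bases before to 20 bases after the start, and the capitals mark CCGGAAG or, where it lies on the other strand, its complement CTTCCGG.
Arpc1a (chr5:145083829-145083888, + strand): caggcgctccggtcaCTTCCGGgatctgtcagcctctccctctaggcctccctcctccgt
Arpc3 (chr5:122391838-122391897, + strand): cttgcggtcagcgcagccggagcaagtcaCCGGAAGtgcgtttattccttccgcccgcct
Arpc4 (chr6:113378073-113378132, + strand): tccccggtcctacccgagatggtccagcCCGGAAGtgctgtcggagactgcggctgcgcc
Actr2 (chr11:20112932-20112991, - strand): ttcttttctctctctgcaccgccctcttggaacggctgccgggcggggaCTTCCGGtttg
Actr3 (chr1:125435708-125435767, - strand): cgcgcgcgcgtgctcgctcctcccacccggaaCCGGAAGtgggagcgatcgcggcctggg
In Arpc3 and Arpc4 the match shown began 11 and 12 bases before the start and in Actr3 8 bases before it, all on the strand of the gene. Arpc3, Actr2 and Actr3 each held a further match outside the stretch shown, that of Arpc3 on the other strand. Wasf2 held no CCGGAAG. Its promoter is shown for its 4 CCAAT boxes, more than in any other of the 9, with CCAAT or its complement ATTGG in capitals.
Wasf2 (chr4:133130446-133130520, + strand): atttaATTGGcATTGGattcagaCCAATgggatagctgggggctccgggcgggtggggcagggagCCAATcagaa

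The subunits of the complex lay close to no change, while 1 of the 3 probes of Arpc3 and 2 of the 3 probes of Wasf2 were far lower with palmitate. In RNA of whole cultures, less RNA per cell and fewer cells that hold it cannot be told apart. With the brightest probe standing for each gene, the mean log2 ratio over 4 arrays was below 0 for 7 of the 9 subunits (77.8%), against 48.0% of all tested probes. The latter share counts every tested probe, dim ones and several of the same gene included, so the sets are unlike. The second-brightest probes of Arpc3 and Arpc4 had means above 0 (0.21 and 0.060). With median centring in place of loess all 9 subunits lay above 0 (0.068 to 0.48), and 5 of 9 below the array median of 0.18. The median of the 9 subunit means was -0.13, and that of all tested probes was 0.0087. Within arrays the median of the 9 subunits was -0.22, -0.19, -0.047 and 0.027 in replicates 1 to 4, with 9, 6, 5 and 4 subunits below 0. The array that stood apart therefore had the most subunits below 0, and without replicate 1 the median of the subunit means was -0.071. For scale, the median SD over 4 arrays was 0.20 for all tested probes, and 270 probes spotted 10 times had a median SD of 0.027 to 0.051 within an array.

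**Figure D1:**
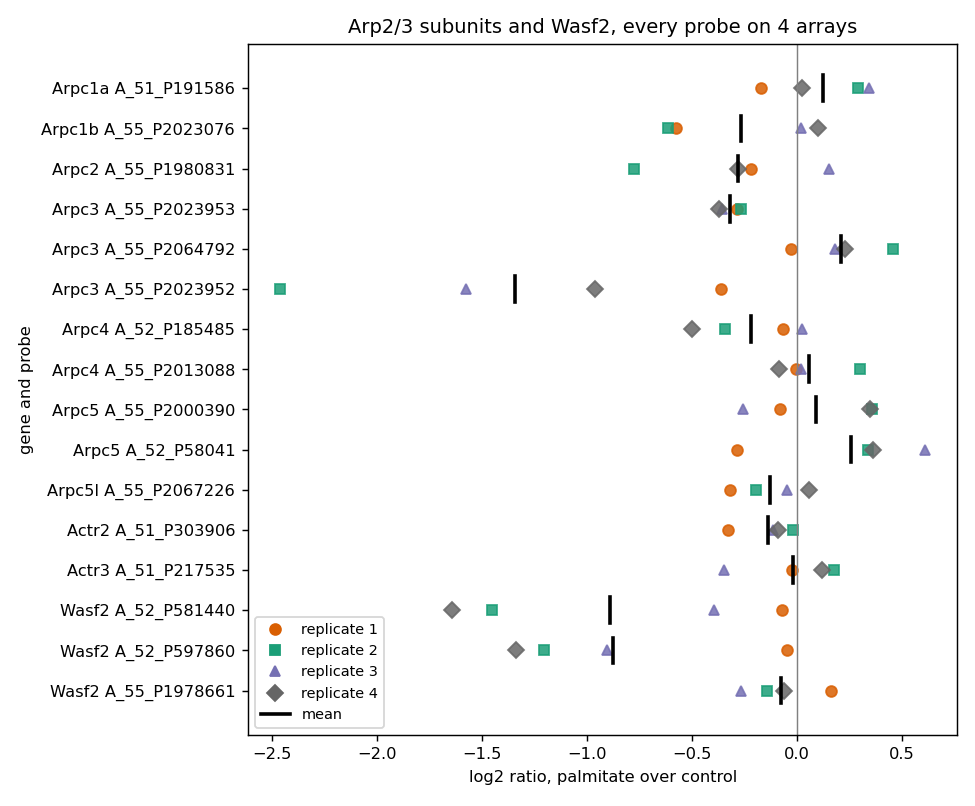
Ratio of palmitate to control on the log2 scale (x axis) for each of the 16 probes (y axis), with 1 symbol per replicate array and a black bar at the mean. The low means of -1.34 for an Arpc3 probe and -0.87 for a Wasf2 probe come from replicates 2 to 4. That of -0.89 for the brightest Wasf2 probe comes mostly from replicates 2 and 4 (-1.45 and -1.64), with -0.39 in replicate 3. On all of these probes the replicate 1 symbols lie nearer to 0.

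No probe of the 10 genes passed an adjusted p of 0.05 in limma over 4 arrays, nor did any other probe of the array (0% of those tested). At an unadjusted p under 0.05, 4 of the 16 probes were lower, where 11.1% of all tested probes were, and 0 were higher, where 10.8% were. The 4 were both bright Wasf2 probes and the Arpc3 probes A_55_P2023952 and A_55_P2023953. Without replicate 1, the same 4 probes were lower at an adjusted p under 0.05 in limma, where 9.22% of tested probes were, and 1 probe of Arpc5 was higher, where 8.78% were. Since the genes were chosen by this contrast, nothing is read from these counts.

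Actr2 and Actr3 are the actin-like subunits themselves. The Actr2 probe had log2 ratios of -0.33, -0.015, -0.11 and -0.086 in replicates 1 to 4, with a mean of -0.13 ± 0.13 (SD, n = 4) and -0.071 without replicate 1. It was below 0 on 4 of 4 arrays, although the mean was about as large as its SD. The Actr3 probe had ratios of -0.023, 0.18, -0.34 and 0.12, with a mean of -0.016 ± 0.23 (SD, n = 4). Actr3 thus moved in both directions and its mean stayed near 0 with or without replicate 1 (-0.014). The paralog Actr3b, an alternative form of Actr3 named here after its values were seen, had a mean of -0.20 ± 0.18 (SD, n = 4).

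Arpc2 and Arpc4 form the backbone that touches the mother filament. The Arpc2 probe had ratios of -0.22, -0.78, 0.15 and -0.28, with a mean of -0.28 ± 0.38 (SD, n = 4) and of -0.30 without replicate 1. Its log2 level in the control channel was 14.83, 15.24, 14.97 and 15.13, and in the palmitate channel 14.61, 14.47, 15.12 and 14.85. The channels overlapped, and replicate 3 ran against the others. Arpc4 had a probe of each sign. Its brightest, A_52_P185485, had ratios of -0.065, -0.34, 0.027 and -0.50, with a mean of -0.22 ± 0.24 (SD, n = 4) and of -0.27 without replicate 1. The other, A_55_P2013088, had -0.0041, 0.30, 0.022 and -0.082, with a mean of 0.060 ± 0.17 (SD, n = 4) and of 0.081 without replicate 1. Over 4 arrays the means of both probes were smaller than their SD, and they differed by -0.28 ± 0.30 (SD, n = 4 arrays).

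Arpc1a and Arpc1b are alternative forms of the WD-repeat subunit. Arpc1a had ratios of -0.17, 0.29, 0.34 and 0.027, with a mean of 0.12 ± 0.24 (SD, n = 4) and of 0.22 without replicate 1. Arpc1b had -0.57, -0.61, 0.020 and 0.10, with a mean of -0.27 ± 0.38 (SD, n = 4) and of -0.16 without replicate 1. The low mean of Arpc1b rested on replicates 1 and 2, and both forms had ratios on either side of 0. Arpc5 and Arpc5l are alternative forms of the smallest subunit. The Arpc5l probe had ratios between -0.32 and 0.059 (mean -0.12 ± 0.17, SD, n = 4), with a mean of -0.061 without replicate 1. Of the Arpc5 probes, A_55_P2000390 had ratios of -0.081, 0.36, -0.26 and 0.35 (mean 0.093 ± 0.31, SD, n = 4), with a mean of 0.15 without replicate 1. The other, A_52_P58041, had -0.28, 0.34, 0.61 and 0.37 (mean 0.26 ± 0.38, SD, n = 4), with a mean of 0.44 without replicate 1. On this probe of Arpc5, replicates 2 to 4 lay above 0 and replicate 1 below it.

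Arpc3, the subunit that links Actr3 to the mother filament, was read by 3 probes that all map to the same RefSeq transcript and gave ratios of different sign and size. The brightest, A_55_P2023953, had log2 levels of 15.47, 15.36, 15.55 and 15.54 in the control channel of replicates 1 to 4. In the palmitate channel it had 15.19, 15.10, 15.19 and 15.17. The channels did not overlap, and the ratios of -0.28, -0.26, -0.36 and -0.37 spread less than on any other probe of these genes, with a mean of -0.32 ± 0.053 (SD, n = 4) and of -0.33 without replicate 1. The control was 1.25-fold higher on this probe. How many of all tested probes had channels without overlap was not counted, so non-overlap is only described, here and below.

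The next Arpc3 probe, A_55_P2064792, had control levels of 14.19, 14.20, 14.05 and 14.14 and palmitate levels of 14.16, 14.65, 14.24 and 14.37. Its ratios were -0.028, 0.46, 0.18 and 0.23, with a mean of 0.21 ± 0.20 (SD, n = 4) and of 0.29 without replicate 1. The palmitate channel was higher on 3 of 4 arrays, and the ranges of both channels overlapped. On the third Arpc3 probe, A_55_P2023952, the control levels were 10.29, 10.27, 10.22 and 10.07 and the palmitate levels 9.93, 7.81, 8.65 and 9.11. Its ratios of -0.36, -2.46, -1.58 and -0.96 gave a mean of -1.34 ± 0.90 (SD, n = 4), or a control that was 2.53-fold higher, and a mean of -1.67 without replicate 1. Every palmitate level was below every control level, and the control levels lay close together while the palmitate levels did not. Before normalization its median spot signals were 847, 723, 596 and 846 in the control channel and 822, 216, 700 and 248 in the palmitate channel, over backgrounds of 34 to 40.

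**Figure D2:**
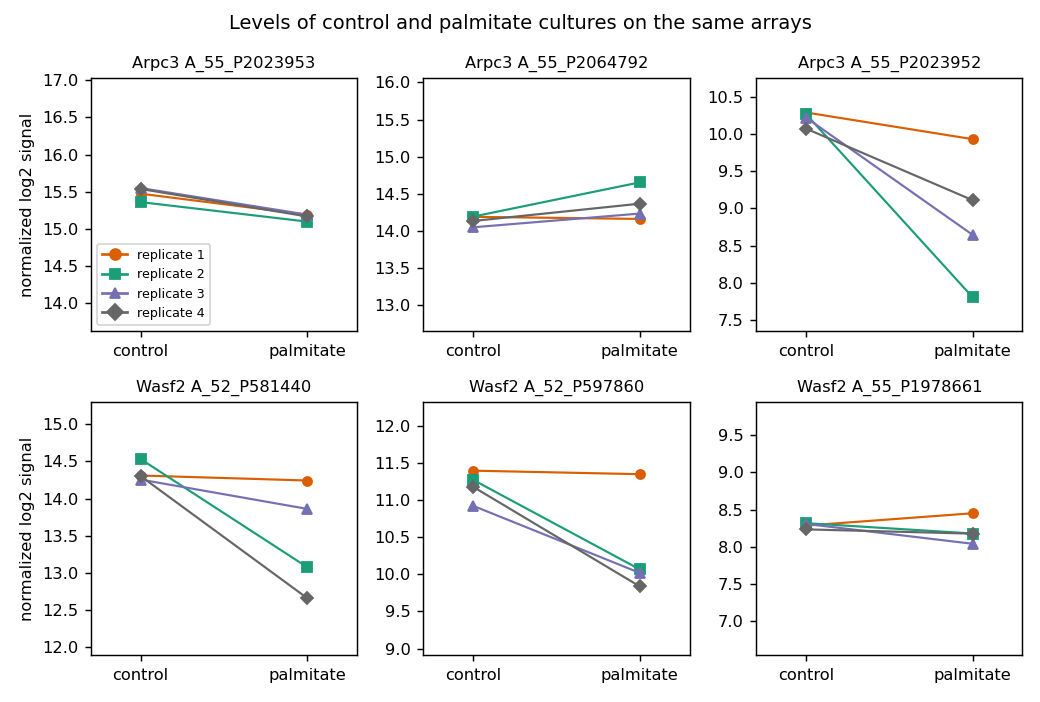
Normalized log2 signal (y axis, the same span in each panel) of the control and palmitate cultures joined by array, for the 3 probes of Arpc3 (top) and the 3 of Wasf2 (bottom), with 1 colour and symbol per replicate. The lines of A_55_P2023952 fall from about the same control level to between 7.81 and 9.93, and those of A_55_P2064792 rise in replicates 2 to 4.

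The Arpc3 probe means spanned 1.55 on the log2 scale. Among 3376 genes with several tested probes the median span was 0.18, and 12 genes (0.355%), Arpc3 included, spanned at least as much. Among the 516 genes with 3 or more tested probes the median span was 0.33, and 3 genes, Arpc3 included, reached that of Arpc3. The 2 lower probes of Arpc3 themselves differed by 1.02 ± 0.91 (SD, n = 4 arrays). Since Arpc3 was chosen for this disagreement, its place among the genes is a description.

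The tested probes of other genes whose 4 ratios lay nearest to those of the lowest Arpc3 probe, by Euclidean distance over the 4 arrays, were for Ano6, a phospholipid scramblase (distance 0.682), Stard4, a sterol carrier (0.762), Emp2, a membrane protein (0.769), Sec61b, a subunit of the translocon (0.875), and Pomp, an assembly factor of the proteasome (0.918). The Ano6 probe had ratios of -0.043, -2.05, -1.28 and -0.62. The Emp2 probe had -0.47, -1.85, -1.61 and -1.42. All 5 had their lowest ratio in replicate 2 and their highest in replicate 1. This is the order of the Arpc3 probe by which they were picked, so it follows from the choice. Of the 4 of these genes with a further tested probe, that probe had a mean of 0.28 for Stard4, 0.33 for Emp2, 0.053 for Sec61b and -0.47 for Pomp. The other probes were compared by their means only. The ratio of the probe for 28S ribosomal RNA (Rn28s1) was 1.42, -2.49, -2.14 and -3.35, likewise highest in replicate 1, and its part in the Arpc3 and Wasf2 results was not tested.

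Wasf2 is a WAVE protein and carries the activating VCA domain. Its brightest probe, A_52_P581440, had control levels of 14.31, 14.53, 14.25 and 14.30 and palmitate levels of 14.24, 13.08, 13.86 and 12.66. The ratios of -0.067, -1.45, -0.39 and -1.64 gave a mean of -0.89 ± 0.77 (SD, n = 4), or a control that was 1.85-fold higher, and a mean of -1.16 without replicate 1. The channels did not overlap, but only just. The lowest control level was 14.25 (replicate 3) and the highest palmitate level 14.24 (replicate 1). On replicate 1 the channels were nearly equal.

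The next Wasf2 probe, A_52_P597860, had control levels of 11.39, 11.27, 10.92 and 11.17 and palmitate levels of 11.35, 10.07, 10.02 and 9.84. Its ratios were -0.047, -1.20, -0.90 and -1.34, with a mean of -0.87 ± 0.58 (SD, n = 4), or a control 1.83-fold higher, and a mean of -1.15 without replicate 1. Replicates 2 to 4 lay below all controls, and replicate 1 lay within them. The probe A_55_P1978661 was dim, with ratios of 0.17, -0.14, -0.27 and -0.057 and a mean of -0.074 ± 0.18 (SD, n = 4). Without replicate 1, the only array above 0, its mean was -0.15. The span of the Wasf2 probe means was 0.81, and 102 of the 3376 genes with several tested probes (3.02%) had at least that span, as did 38 of the 516 genes with 3 or more tested probes. Both bright probes of Wasf2 differed from each other by -0.016 ± 0.37 (SD, n = 4 arrays). On single arrays the difference ran from -0.30 to 0.51, so the means were close but the arrays were not. The 2 brightest Arpc3 probes differed by -0.53 ± 0.20 (SD, n = 4 arrays).

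How the dyes were balanced changed the direction of many ratios against 0, large ones included, but of few against the median of the array. With each array centred on its median in place of loess, the median of all tested probes became 0.18, and 8 of the 16 probes changed sign. Against the array median 2 of 16 did so. Under that centring the brightest Arpc3 probe had a mean of 0.068, which was still below the array median, and the lowest Arpc3 probe had -1.09. With no dye normalization the median of all probes became 0.99, the bright Wasf2 probes had means of 0.26 and 0.23 and the lowest Arpc3 probe -0.28, so these too lay below the array median. With the processed signals of the scanner software the lowest Arpc3 probe had a mean of -1.96 and the Wasf2 probes -0.83 and -1.10.

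**Figure D3:**
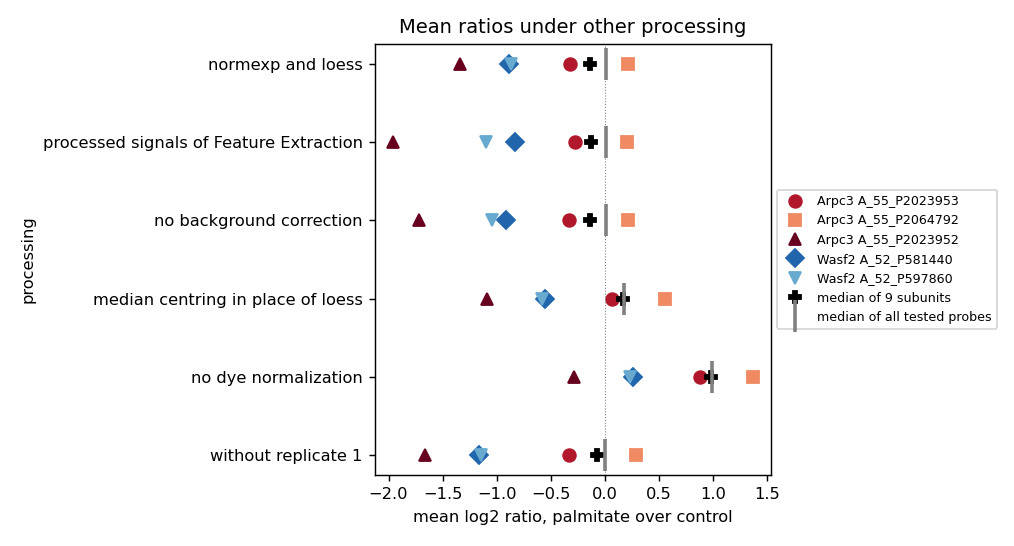
Mean log2 ratio over the arrays (x axis) of the 3 Arpc3 probes, the bright Wasf2 probes and the median of the 9 subunits under 6 ways of processing (y axis), with a grey bar at the median of all tested probes. The lowest Arpc3 probe and both Wasf2 probes lie left of the grey bar in each of the 6, and the median of the subunits lies near it.

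The genes that work with the complex were read from 7 lists, in which 106 genes had a probe, 1 (Elmo2) had none and 97 were tested, each by its brightest probe. In limma over 4 arrays 0 of the 97 passed an adjusted p of 0.05, and at an unadjusted p under 0.05 there were 10 lower and 15 higher genes, where 11.1% and 10.8% of all tested probes were. Without replicate 1, 5 were lower and 14 higher at an adjusted p under 0.05 in limma, where 9.22% and 8.78% of all tested probes were. A gene counted there is said below to pass without replicate 1, above or below 0. Replicate 1 was singled out because its ratios disagreed with those of the other arrays, so the remaining arrays agree partly by that choice. The p-values without replicate 1 may therefore be too small, and passing there is given as a description only. Leaving out replicate 2, 3 or 4 instead gave 0 partner genes. A gene that did not pass may still have moved. The genes named are the highest and lowest of each list and those past that test, the latter chosen after their values were seen. Relative to the median of the array, each of them but Wasf3 kept its direction with median centring, with no dye normalization, with the processed signals and without replicate 1.

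With loess, the means of the partners of Wasf2 in the WAVE complex and its paralogs lay on the other side of 0 from Wasf2. All 9 tested genes had a mean above 0, and 8 of 9 lay above the median of the array. With median centring in place of loess 7 of 9 lay above 0, and 6 of 9 above the array median. With no dye normalization all 9 lay above 0, but so did the bright Wasf2 probes (0.26 and 0.23). In replicate 1 Wasf1, Wasf3, Nckap1l, Cyfip2, Brk1 and Abi1 lay below 0, as the bright Wasf2 probes did. Cyfip1, Abi2 and Nckap1 lay above 0 there. The median of the 9 means was 0.20 where the median of all tested probes was 0.0087. The other tested probe of the Abl interactor Abi2 had a mean of -0.069. Wasf1, the paralog with the highest mean, had ratios of -0.029, 0.96, 0.32 and 0.91, with a mean of 0.54 ± 0.48 (SD, n = 4; adjusted p = 0.170 from limma, 0.0172 without replicate 1). Wasf3, the other paralog, had the lowest mean, 0.0067 ± 0.083 (SD, n = 4), and one of 0.046 without replicate 1. Nckap1, a scaffold of the complex, was above 0 on 4 of 4 arrays, with a mean of 0.41 ± 0.18 (SD, n = 4; adjusted p = 0.123 from limma, 0.0191 without replicate 1). Abi1, an Abl interactor, had a mean of 0.30 ± 0.42 (SD, n = 4; adjusted p = 0.326 from limma), and one of 0.48 without replicate 1 (adjusted p = 0.0425 from limma). These 3 genes passed above 0 without replicate 1, and no gene of the list passed below 0 there.

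Of the other factors that switch on Arp2/3, listed together with proteins that bind them, 15 were tested. They had a median of -0.016 (0.014 without replicate 1) and 8 means below 0. Wipf1, which binds and stabilizes N-WASP, was the highest at 0.34 ± 0.074 (SD, n = 4; adjusted p = 0.120 from limma, 0.0464 without replicate 1). It alone of the list passed without replicate 1, where its mean was 0.33. Its other probe had a mean of 0.15. Nckipsd, an SH3 adaptor, was the lowest at -0.31 ± 0.31 (SD, n = 4).

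Of the GTPases and adaptors upstream, 18 were tested, with a median of 0.076 (0.13 without replicate 1) and 6 means below 0. The highest was Fnbp1, an F-BAR protein that joins membrane curvature to actin, at 0.53 ± 0.062 (SD, n = 4; adjusted p = 0.118 from limma, 0.0121 without replicate 1), while its other probe had a mean of -0.052. The lowest was the Rac paralog Rac3, at -0.53 ± 0.25 (SD, n = 4; adjusted p = 0.118 from limma, 0.0226 without replicate 1), below 0 on 4 of 4 arrays. Rac1, the GTPase that acts on the WAVE complex, had ratios of -0.55, 1.11, 0.51 and 0.76, with a mean of 0.46 ± 0.72 (SD, n = 4; adjusted p = 0.342 from limma) and of 0.79 without replicate 1 (adjusted p = 0.0110 from limma). Its other probe had a mean of -0.21, so the probes of Rac1 differ in sign. Fnbp1l, a relative of Fnbp1, had a mean of -0.26 ± 0.32 (SD, n = 4; adjusted p = 0.304 from limma), and one of -0.40 without replicate 1 (adjusted p = 0.0419 from limma).

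Of the proteins that inhibit Arp2/3 or take branches apart, 10 were tested, with a median of -0.052 and 7 means below 0. Gmfb, which removes branches, was the lowest, with ratios of 0.22, -0.55, -0.76 and -0.66 and a mean of -0.44 ± 0.45 (SD, n = 4; adjusted p = 0.210 from limma) and of -0.66 without replicate 1 (adjusted p = 0.00729 from limma). Of this list, Gmfb alone passed without replicate 1. The highest was Coro1c, a coronin, at 0.11 ± 0.077 (SD, n = 4).

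Formins and other nucleators and elongators of unbranched filaments had a median of 0.12 over 20 tested genes, and of 0.058 without replicate 1. The formin Diaph3 was the highest, at 0.62 ± 0.49 (SD, n = 4; adjusted p = 0.146 from limma, 0.00734 without replicate 1), and the formin Fhod1 the lowest, at -0.53 ± 0.33 (SD, n = 4; adjusted p = 0.129 from limma, 0.0594 without replicate 1). Vasp, an elongator, had a mean of 0.24 ± 0.53 (SD, n = 4; adjusted p = 0.511 from limma) and of 0.49 without replicate 1 (adjusted p = 0.0188 from limma). Diaph3 and Vasp passed above 0 without replicate 1.

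The proteins that cap or sever filaments or bind actin monomers had a median of 0.14 over 17 tested genes. Dstn, which severs filaments, was the highest, with ratios of 0.37, 1.22, 0.85 and 0.73 and a mean of 0.79 ± 0.35 (SD, n = 4; adjusted p = 0.118 from limma, 0.00568 without replicate 1). The monomer-binding thymosins Tmsb4x and Tmsb10 had means of 0.67 ± 0.30 and 0.63 ± 0.56 (SD, n = 4 each; limma without replicate 1 gave an adjusted p of 0.00788 and 0.00859). The capping subunit Capza1 had a mean of 0.59 ± 0.17 (SD, n = 4; adjusted p = 0.0156 from limma without replicate 1), while the lowest of its 4 tested probes had -0.018. The twinfilins went apart: Twf1 had a mean of 0.47 ± 0.46 and Twf2, the lowest of the list, -0.37 ± 0.34 (SD, n = 4 each; limma without replicate 1 gave an adjusted p of 0.0118 for Twf1 and 0.0201 for Twf2). Dstn, both thymosins, Capza1 and Twf1 passed above 0 without replicate 1, and Twf2 passed below 0.

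The list of other actin-related proteins had a median of 0.027 over 8 tested genes, and of -0.033 without replicate 1. It holds proteins that serve in dynactin or in chromatin remodelling, and the Actr3 paralog Actr3b. Actr10, a dynactin subunit, was the lowest, at -0.39 ± 0.29 (SD, n = 4; adjusted p = 0.156 from limma, 0.0160 without replicate 1). Actl6a, a chromatin remodelling subunit, was the highest, at 0.16 ± 0.38 (SD, n = 4; adjusted p = 0.548 from limma) and 0.35 without replicate 1 (adjusted p = 0.0425 from limma). Actr10 passed below 0 and Actl6a above 0 without replicate 1.

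**Figure D4:**
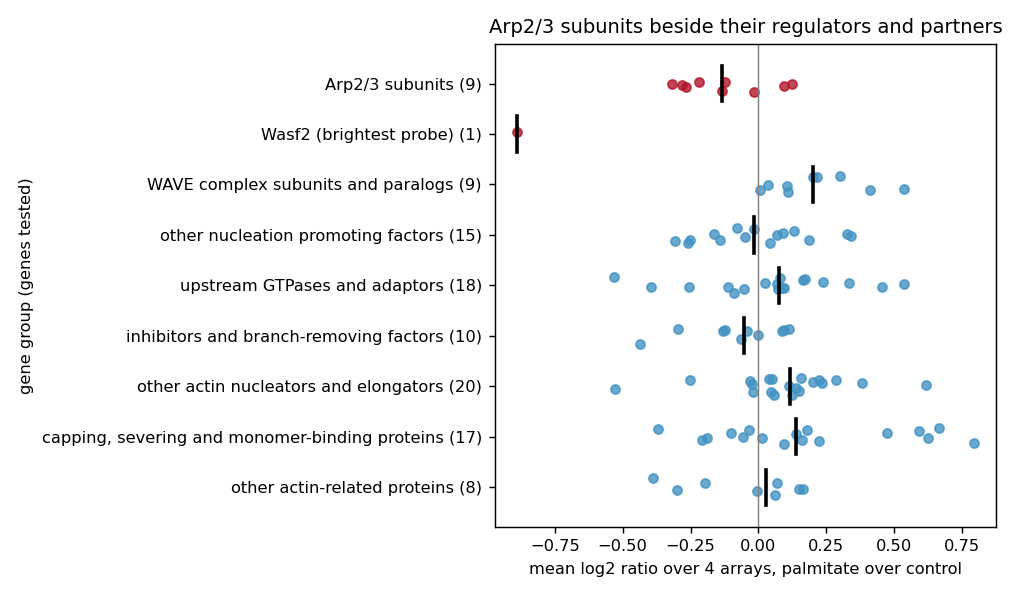
Mean log2 ratio over 4 arrays (x axis) of the brightest tested probe of each gene, with the 9 Arp2/3 subunits and Wasf2 in red, 7 groups of partner genes in blue, the number of tested genes in parentheses and a black bar at each median. All WAVE complex subunits and paralogs lie above 0 (7 of 9 with median centring) and Wasf2 lies at -0.89, below each of the partner genes shown.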

How the data were processed

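Per the labels, the arrays were read with Agilent Feature Extraction 10.7.3.1. Uncorrected intensity values were deposited as medians of each spot and its background, which were used where means had been intended. The authors also deposited processed intensity values, from which the software had subtracted background and in which it had balanced the dyes. The log ratios deposited by the authors per spot are on a log10 scale, and their table of the series holds log2 ratios of palmitate over control, which differed from ratios of the processed signals by at most 3e-06. The medians of its columns were -0.072, -0.12, -0.10 and -0.16. Both served as alternatives only. The p-values of the ratios in the scanner files were not used.

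From the medians, limma 3.58.1 under R 4.3.3 (with statmod 1.5.0) removed background by normexp with an offset of 50 and balanced the dyes of each array by loess with a span of 0.3. Control spots and outlier flags were left out, and repeated spots were averaged. Channel levels were also quantile-scaled between arrays by their average. The mean ratio over the arrays was compared with 0 by limma over 24169 probes, with p-values adjusted by Benjamini-Hochberg. In this test the pairing of cultures is that of the array. An exact test over 4 arrays cannot give a two-sided p below 0.125, so none was used. Probes were named through RefSeq (GRCm38.p6), and probe sequences were not used here. The pipeline was tested on simulated data.

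Genes named were all 10 genes, the highest and lowest gene of each list, any called gene and the 5 nearest probes. The members and lists were chosen with earlier results of these data known. The alternatives changed the dye normalization, background correction, filter, values, test, pairing, choice of probe and replicates. Precision is limited by the number of arrays and by signal, since between 57.6 and 70.7% of probes rose well above background in a channel.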

Additional observations from a re-analysis of the deposited data

Results flagged for a closer look

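The ratios of 36 probes named in the text were checked for an array far from the others, and 1 was found, for a gene that is not in the complex. The Wipf1 probe A_52_P637282 had log2 ratios of 0.38, 0.39, 0.37 and 0.23 in replicates 1 to 4, and the gap of replicate 4 to the nearest array was 0.842 of the range, above Dixon's critical value for 4 arrays. By chance about 1 in 20 probes passes this limit. None of the 16 probes of the Arp2/3 genes and Wasf2 did.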

How the results depend on the processing

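Over 4 arrays, 0 probes passed an adjusted p of 0.05 in limma, with 2682 lower and 2601 higher at an unadjusted p under 0.05. Leaving out 1 replicate at a time gave 0 to 4352 probes, 0 to 5 of the 16 probes of the Arp2/3 genes and Wasf2, and 0 to 19 of the 97 tested partner genes. All of these calls came without replicate 1 (2229 lower and 2123 higher probes). That array was singled out for its disagreement with the others, so these calls are a description only. With no dye normalization 20348 probes passed, 20322 of them higher, with 13 probes of the Arp2/3 genes and Wasf2 and 88 partner genes. The processed signals gave 13 probes (0 lower, 13 higher), the fit with no replicate block, in which the pairing of cultures by array is dropped, gave 70 (37 lower, 33 higher), the methods' t-test on the same channel values gave 10 (7 lower, 3 higher) and the limit of 50% on the coefficient of variation gave 2 among 23502 probes. None of these 4 called a probe of the 10 genes or a partner gene, and 2 of the 16 probes passed the methods' t-test before adjustment. That limit left out the Arpc3 probe A_55_P2023952 and the Wasf2 probe A_52_P597860. The channel values behind these last 3 settings were quantile-scaled between arrays. The median of the 9 subunits was 0.17 with median centring and 0.98 without any balancing of the dyes, beside 0.18 and 0.99 for the median probe of the array, and it was -0.15 to -0.071 with 1 replicate left out. The cause of these moves was not tested. Of the mean ratios of single probes under the alternatives, 134 moved by less than their SD over the arrays and 26 by more. With 1 replicate left out, the lowest Arpc3 probe had a mean of -1.67 to -0.96 and the brightest Wasf2 probe one of -1.16 to -0.64.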
